A study of Rattus norvegicus with 16 samples.

Results

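Brain tissue of rats given intravenous hUMSC after occlusion of the middle cerebral artery was compared with brain tissue of rats given saline after the same occlusion, on 6 and 5 arrays. These 11 of the 16 arrays of the series were chosen by their treatment labels alone, and no measured value entered the choice. The labels write the occlusion as MCAo, a model of focal ischaemic stroke, and the infused stem cells as IV-hUMSC, a name they do not spell out, at a dose of 1000000 cells. All rats were 8 weeks old, and the tissue was taken 72 h after the occlusion. The other 5 arrays hold brain tissue of normal controls without occlusion, which carry no injury and no infusion, and they appear only as levels beside the 2 compared groups. Gene expression was read as the brightness of Agilent one-colour microarrays, and every level is a log2 signal minus the 75th percentile of its own array, so a level of 0 marks a probe as bright as that percentile.

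The control samples' tissue label also speaks of the occlusion, while their titles say they had none. The labels do not say which hemisphere or region was taken, when the cells or the saline were infused, the sex of the rats, or whether the infused cells reached the brain. They number the samples without saying that each number is another rat, so the p-values measure the spread between these samples. In bulk tissue, fewer cells of a type and less RNA per cell cannot be told apart. The tissue label was checked against defining brain genes. Mbp, which encodes myelin basic protein, lay at 7.31 to 7.64 on the hUMSC arrays and at 7.41 to 7.76 on the saline arrays, and the 16 general neuronal genes measured had mean levels of 1.84 to 2.70 on the 11 arrays.

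Closing the middle cerebral artery starves its territory of blood, and neurons of the striatum and overlying cortex die first. In the days that follow, microglia and blood monocytes clear the debris, astrocytes become reactive, cytokines and chemokines are made, and activated vessel walls display adhesion molecules that catch passing leukocytes. Infused stem cells are studied in stroke mainly for the factors they release, which act on immune cells, vessels and surviving neurons.

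The arrays did not fall evenly into their groups. On the first principal component of the 11 arrays, which held 49.5% of the variance, saline replicates 5 and 1 lay at -76.9 and -59.1, while the other 3 saline arrays lay between -0.94 and 1.44. The hUMSC arrays lay between -5.01 and 45.8 on the same axis, with replicates 5, 6 and 7 farthest from the saline arrays. A list of 24 phagocytic macrophage genes showed the same order of the saline arrays: its mean level was 0.13 on saline 5 and 0.88 on saline 1, against 1.94 to 2.23 on saline 2, 3 and 4, and -1.05 to -0.86 on the normal controls. Those 2 saline arrays thus lay nearer the normal controls than the other saline arrays did. Most gene groups are described with and without them, while the plot of list medians shows both for every list. They were set apart after the data were seen, as the saline arrays farthest from the hUMSC arrays on that axis. A smaller difference without them was therefore largely fixed by that choice for genes that follow the axis. The arrays sat on 2 slides per the file headers, and both slides held both groups (saline 1, 2, 3 and hUMSC 5, 6 on slide 1, saline 4, 5 and hUMSC 7 to 10 on slide 2).

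Infusion of hUMSC was set against saline to ask which transcripts of the injured brain differed with the cells. Of 20575 genes tested, 9 rose and 40 fell with hUMSC at a Benjamini-Hochberg adjusted p under 0.05 in limma, which is 0.0437% and 0.194% of the genes tested. Of those tested, 12467 had a symbol, and each probe without a symbol was counted as a gene. The genes that rose were led by 2 genes of leukocyte traffic, the chemokine gene Ccl12 and the endothelial selectin gene Sele, and included the channel gene Kcnj8 of pericytes. The genes that fell included Ppp2r2c and Camk2b, which encode a phosphatase subunit and a kinase subunit of neurons, and the transcription factor genes Nr1d2 and Zbtb16. Of the 49 called genes, 31 had a symbol and 18 were probes without one here.

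Called differences were small for most of the genes that fell, with a median of -0.58 on the log2 scale, and larger for those that rose, with a median of 1.91. A change of 2-fold or more was seen in 7 of the 9 genes that rose and in 1 of the 40 that fell. Those that rose include the probes A_64_P029190, A_64_P079080 and A_64_P029191, whose levels moved together across the arrays. They may not be separate genes, and the counts and median of the rises carry that limit. All 49 had hUMSC arrays that lay wholly above or wholly below the 5 saline arrays, which held for 260 genes (1.26%) upward and 623 genes (3.03%) downward among all genes tested. Without adjustment, 2426 genes (11.8%) were higher and 3475 (16.9%) lower at p under 0.05, and the adjusted p of these genes reached at most 0.174. The lean to lower depended on the scaling: the counts were 2940 higher and 2736 lower with median scaling, and 2697 and 2997 with quantile normalization. The median difference over all genes was -0.064. This median and the shares of all genes given here are the background for the gene lists below. Some lists share members, so their counts are not separate from each other.

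**Figure D1:**
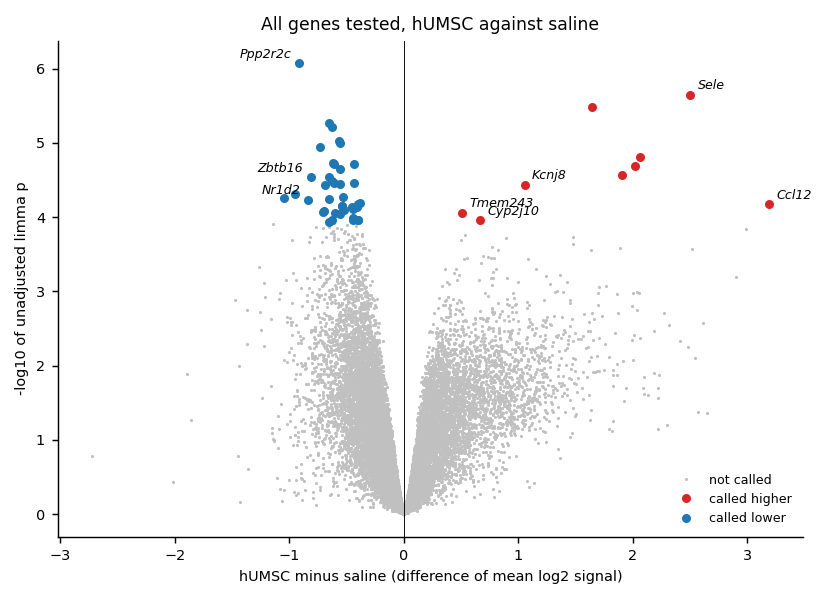
Each point is 1 of the 20575 genes tested, with the hUMSC minus saline difference of mean log2 signals on the horizontal axis and minus log10 of the unadjusted limma p on the vertical axis; red and blue mark genes called at an adjusted p under 0.05. The 9 called higher reach 3.19 on the log2 scale, and the 40 called lower lie between -1.05 and -0.38, with Ppp2r2c at the smallest adjusted p of 0.0175.

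The number of calls depended on single arrays. The groups did not overlap for any of the 49 called genes, so leaving out arrays could not turn their direction. Leaving out saline 1 or hUMSC 5, 7 or 9 left 0 genes called in either direction. The counts were 0 higher and 2 lower without saline 5, 2 and 2 without hUMSC 6, 3 and 5 without hUMSC 10, 11 and 13 without saline 2, 14 and 60 without saline 3, 80 and 306 without saline 4, and 11 and 41 without hUMSC 8. In each of these fits all 49 genes kept an unadjusted p under 0.05 in limma, but they had been chosen from these same arrays. With the slide as a block, 866 genes (4.21%) were called higher and 1456 (7.08%) lower, all 49 among them. Within slide 1 and within slide 2, 0 genes passed the adjusted threshold in limma, with 1986 and 926 genes higher and 3006 and 1384 lower at an unadjusted p under 0.05. All 49 had an unadjusted p under 0.05 within each slide, where their direction was fixed in advance too. A two-sided exact permutation test of the group labels cannot give a p under 0.00216, which 571 genes reached, and with adjustment over all genes it called 0.

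Sele encodes E-selectin, which activated endothelium displays to slow passing leukocytes. Its level was -7.28, -6.64, -6.60, -6.34 and -7.07 on saline 1 to 5, and on the hUMSC arrays it ran from -5.41 through a median of -4.11 to -3.69. The lowest hUMSC array, replicate 8, lay above every saline array, and the groups did not overlap. The difference was 2.51 ± 0.29 (SE; 5.68-fold, adjusted p = 0.0229), but 0.86 on the log2 scale with normexp background correction, so its size depends on how dim signals are treated. The probe was well above background on all 6 hUMSC arrays, on 1 of 5 saline arrays and on 0 of 5 normal controls, which lay at -7.54 to -6.60.

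Ccl12 encodes a CC chemokine that draws monocytes. It read -7.73, -5.05, -4.73, -4.84 and -6.19 on saline 1 to 5, and -3.65 to -2.01 with a median of -2.35 on the hUMSC arrays. Saline 1 lay at the level of the normal controls (-7.85 to -7.16), and every hUMSC array lay above every saline array. Its probe was well above background on all 6 hUMSC arrays, on 4 of 5 saline arrays and on 0 of 5 normal controls. The difference was 3.19 ± 0.52 (9.15-fold, adjusted p = 0.0429), the largest rise among the called genes. It was 1.79 with normexp background correction, 3.65 within slide 1, 2.84 within slide 2 and 2.36 without saline 1 and 5. For Sele the values within slide 1, within slide 2 and without saline 1 and 5 were 2.79, 2.31 and 2.25. Neither gene overlapped between the groups, so leaving out arrays could change only the size of the difference.

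Kcnj8 encodes Kir6.1, the pore of the ATP-sensitive potassium channel of pericytes and smooth muscle. Its level was -0.88, -0.26, -0.82, -0.24 and -1.04 on saline 1 to 5 and 0.14 to 0.63 with a median of 0.42 on the hUMSC arrays. The saline arrays lay below the normal controls (-0.22 to -0.04), and the hUMSC arrays lay above both groups. The difference was 1.05 ± 0.16 (2.08-fold, adjusted p = 0.0335), and it was 1.22 within slide 1, 0.97 within slide 2 and 0.85 without saline 1 and 5.

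The starts of the 3 genes with a symbol and the largest rises are shown because they are the regulatory sequence next to the strongest upward results. Each run is the 250 bases before the annotated start, 5′ to 3′ on the strand of the gene, from RefSeq (build GRCr8): Ccl12 at chr10:67567626-67567875 (+), Sele at chr13:78936264-78936513 (+) and Kcnj8 at chr4:177246549-177246798 (-). Capitals mark matches to any of 4 motifs searched on both strands.
Ccl12: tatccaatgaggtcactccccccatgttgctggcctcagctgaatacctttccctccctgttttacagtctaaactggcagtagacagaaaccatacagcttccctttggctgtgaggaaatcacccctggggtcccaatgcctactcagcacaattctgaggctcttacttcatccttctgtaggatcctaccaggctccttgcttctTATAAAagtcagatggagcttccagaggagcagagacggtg
Sele: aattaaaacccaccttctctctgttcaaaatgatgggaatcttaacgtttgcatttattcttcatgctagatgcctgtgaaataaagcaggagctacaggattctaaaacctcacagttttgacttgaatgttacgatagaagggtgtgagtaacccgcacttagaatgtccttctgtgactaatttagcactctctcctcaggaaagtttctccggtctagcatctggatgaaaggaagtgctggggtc
Kcnj8: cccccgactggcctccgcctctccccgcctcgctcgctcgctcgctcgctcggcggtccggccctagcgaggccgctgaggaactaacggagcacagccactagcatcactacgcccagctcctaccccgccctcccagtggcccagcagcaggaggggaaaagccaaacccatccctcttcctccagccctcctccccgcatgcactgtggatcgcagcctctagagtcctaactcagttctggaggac
The motifs were a κB form (GGG and TTTCC with any 2 bases between them), an AP-1 form (TGANTCA), an E-box (CACGTG) and a TATA box (TATAAA), and no matches overlapped in these 3 runs. The capitals in Ccl12 are its only match, a TATAAA whose last base lies 36 bases before the start, and Sele and Kcnj8 held none of the 4. Of all 33469 promoters of this length, 1.3% held the κB form, 6.34% the AP-1 form, 5.59% the E-box and 12.9% the TATA box. Among the 5 promoters matched to genes that rose, Ccl12 held the only match. Among the 24 promoters matched to genes that fell, 1 held the κB form, 2 the AP-1 form, 2 the E-box and 0 the TATA box. A match describes letters and not a bound site, and its absence describes this window alone.

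Of the other called genes that rose, Cyp2j10 and Tmem243 differed by less than Kcnj8 and 4 probes without a symbol by more. Cyp2j10, a cytochrome P450 gene, read -4.06, -4.21, -3.69, -3.73 and -4.05 on saline 1 to 5 and -3.46 to -3.06 on the hUMSC arrays (difference 0.67 ± 0.12, adjusted p = 0.0477). Its saline arrays lay within the range of the normal controls (-4.22 to -3.14), and it was the 1 of 9 risen genes whose hUMSC arrays did not all exceed the controls. With normexp background correction, which shrinks differences between dim signals, it differed by 0.39 and was not called. Tmem243, a transmembrane protein gene, differed by 0.51 ± 0.09 (adjusted p = 0.0444). The 4 probes were (A_64_P038729, A_64_P029190, A_64_P079080 and A_64_P029191), with differences of 1.64, 2.07, 2.02 and 1.91. A_64_P029190, A_64_P079080 and A_64_P029191 read -5.49, -5.23 and -7.04 on control 2, and 0.385, 0.443 and -1.057 on hUMSC 5. Whether they measure separate genes was not tested.

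Ppp2r2c encodes a brain-enriched regulatory B subunit of protein phosphatase PP2A and had the smallest adjusted p of all genes (0.0175). It read -1.45, -1.68, -1.83, -1.83 and -1.42 on saline 1 to 5, and -2.71 to -2.44 with a median of -2.55 on the hUMSC arrays. The saline arrays overlapped the normal controls (-1.76 to -1.38), and all 6 hUMSC arrays lay below both groups. The fall was -0.92 ± 0.10 on the log2 scale, and it was -0.86 within slide 1, -0.95 within slide 2 and -0.78 without saline 1 and 5.

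Camk2b encodes the beta subunit of calcium/calmodulin-dependent kinase II, which anchors the kinase at synapses. It read 1.91, 1.55, 1.78, 1.71 and 2.04 on saline 1 to 5 and 0.92 to 1.36 with a median of 1.14 on the hUMSC arrays. The normal controls lay at 2.09 to 2.85, so all saline arrays lay below the controls and all hUMSC arrays below the saline arrays. The fall was -0.69 ± 0.11 (adjusted p = 0.0335), and it was -0.82 within slide 1, -0.68 within slide 2 and -0.57 without saline 1 and 5. A second probe of the gene differed by -0.76.

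**Figure D2:**
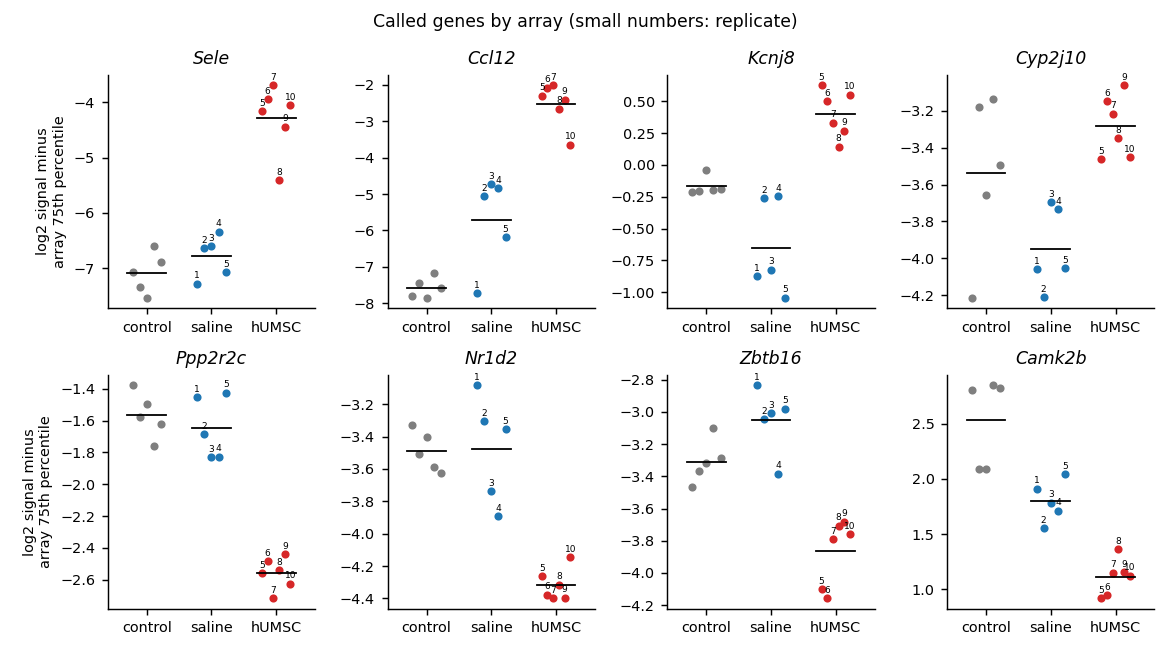
Log2 signal minus the array's 75th percentile for 8 called genes on the 5 normal control, 5 saline and 6 hUMSC arrays; each point is 1 array, small numbers give the replicate and bars are group means. The hUMSC arrays lie above all saline arrays for Sele, Ccl12, Kcnj8 and Cyp2j10 and below all of them for Ppp2r2c, Nr1d2, Zbtb16 and Camk2b.

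The 40 genes that fell were also set beside the normal controls. For 37 of the 40 the range of the saline arrays overlapped that of the controls, which held for 81.5% of all genes, and their median saline minus control difference was -0.045. For 38 of the 40 every hUMSC array also lay below every control array. Of the 623 genes whose hUMSC arrays lay below all saline arrays, called or not, 458 (2.23% of all genes) lay below all controls too. For 8 of the 9 that rose every hUMSC array also lay above every control array, as in 219 (1.06% of all genes) of the 260 genes with hUMSC above all saline arrays. Both shares were higher among the called genes, more so for those that fell. Called genes were chosen by their difference from the saline arrays, so nothing is read from these counts about them.

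Further genes among the 12 largest falls with a symbol, with Myo5a beside them, had varied known roles. Xkr6, of the XK-related membrane protein family, fell by 1.05 on the log2 scale (SE 0.17, adjusted p = 0.0428), the largest fall among called genes with a symbol. Plxna2, a semaphorin co-receptor gene of axon guidance, fell by 0.71 and Pcdh9, a cell adhesion protocadherin gene, by 0.66. Tmem178b fell by 0.70, Pam, which amidates neuropeptides, by 0.65, and Myrip, which links Rab27 to myosin, by 0.63, although Myrip differed by -0.31 with normexp background correction and was not called. Myo5a, a myosin that carries vesicles and organelles, fell by 0.45. Asb13, a substrate adaptor gene of an E3 ubiquitin ligase, fell by 0.66, from -0.37 to -0.04 on the saline arrays to -1.01 to -0.77 on the hUMSC arrays.

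The rest of the called genes with a symbol lay between -0.63 and -0.38. Lifr, the receptor subunit for leukaemia inhibitory factor, fell by 0.56 and Pde5a, which breaks down cyclic GMP, by 0.44. Map2k4, a kinase upstream of JNK, fell by 0.61, but its other probe differed by -0.20. Fam168a fell by 0.63 and its other probe differed by -0.11, so both genes rest on 1 of 2 probes. Shoc2, a scaffold of the Ras pathway, fell by 0.45. The transcription factor genes Klf12 and Nfix fell by 0.44 and 0.38, and the rest with a symbol were Rabgap1, Megf9, Rabl6, Vps4a, Klhl42, Trim44 and Mphosph9. Those outside the 12 largest falls with a symbol were named after their values were seen.

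Nr1d2 encodes REV-ERB beta, a nuclear receptor that represses clock genes. It read -3.08, -3.31, -3.74, -3.89 and -3.35 on saline 1 to 5 and -4.40 to -4.14 with a median of -4.35 on the hUMSC arrays, below every saline array and every control (-3.63 to -3.33). The fall was -0.84 ± 0.14 (adjusted p = 0.0428), and it was -0.94 within slide 1, -0.69 within slide 2 and -0.67 without saline 1 and 5.

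Nr1d2 was the only called member of 14 circadian clock genes measured. At an unadjusted p under 0.05, 7 of the 14 were lower and 0 higher, and the list's median difference was -0.33. The arrays of 3 members did not overlap between the groups (Nr1d2, Clock and Tef), all of them lower, beside 3.03% of all genes downward. Named after their values were seen, Per2, a period gene of the negative limb, differed by -1.08 ± 0.25 (adjusted p = 0.071), Clock, a transcriptional activator, by -0.44 ± 0.09 (adjusted p = 0.0586) and Dbp, a clock output factor, by -0.70 ± 0.16. Bmal1, the partner of Clock, differed by 0.12 and Nr1d1, the other REV-ERB gene, by -0.03.

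The mean level of the clock list was -0.84 to -1.29 on the saline arrays and -1.33 to -1.68 on the hUMSC arrays, against -0.96 to -0.86 on the normal controls. Saline 5 and 1 were highest and every hUMSC array lay below every saline array, the nearest pair being hUMSC 10 and saline 3 or 4. The list's median was -0.44 within slide 1, -0.35 within slide 2 and -0.38 with the slide as a block, and -0.27 without saline 1 and 5, when 6 of 14 were lower at an unadjusted p under 0.05 beside 5.99% of all genes. The hour of day at which the tissue was taken was not in the labels, and its part in the result was not tested.

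Zbtb16 encodes PLZF, a zinc finger repressor that glucocorticoids induce in many tissues. It read -2.84, -3.05, -3.01, -3.38 and -2.98 on saline 1 to 5, and -4.16 to -3.68 with a median of -3.78 on the hUMSC arrays, below every control as well (-3.46 to -3.10). The fall was -0.81 ± 0.12 (adjusted p = 0.0335). It was -1.16 within slide 1, -0.55 within slide 2 and -0.72 without saline 1 and 5.

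Zbtb16 was also the only called member of 16 glucocorticoid response genes. Of these, 4 were lower and 1 higher at an unadjusted p under 0.05, beside 16.9% lower and 11.8% higher among all genes. The list's median of -0.07 lay near the median of all genes, -0.064. Named after their values were seen, the other 3 lower members were Fkbp5, a chaperone of the receptor, at -0.56 ± 0.14, Tsc22d3, the leucine zipper GILZ, at -0.50 ± 0.14, and Klf9 at -0.47 ± 0.13. Mt2A, a metallothionein that injury also induces, differed by 0.89 ± 0.37, and the receptor gene Nr3c1 by -0.05 ± 0.10. With saline 1 and 5 left out, 4 members were lower at an unadjusted p under 0.05 and 0 higher.

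The places left among the 12 leading genes on the higher side went to genes that missed the threshold, at adjusted p of 0.0513 to 0.0561. Ptges, which makes prostaglandin E2, read -3.58, -2.72, -2.46, -2.91 and -4.04 on saline 1 to 5 and -2.10 to -0.86 on the hUMSC arrays, a difference of 1.64 ± 0.32. Zc3h12a, an RNase that degrades cytokine messages, differed by 0.90 ± 0.17. Crygn, a crystallin gene, differed by 1.48 ± 0.27. Its probe was well above background on 2 of 5 saline arrays, so it too was tested only through the hUMSC arrays. With normexp background correction Crygn differed by 0.35 and Zc3h12a by 0.37. Apoc1, an apolipoprotein gene of phagocytes, differed by 0.76, Lmo2, a haematopoietic and endothelial cofactor, by 0.82, P2ry14, a receptor for UDP-sugars, by 0.74 and Prkch, a protein kinase C gene, by 0.54. None of these 7 overlapped between the groups, which held for 1.26% of all genes upward. They were chosen by their small p on these same arrays, so nothing is read from that separation.

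Genes of inflammation lay higher on the hUMSC arrays as groups, although 0 members of the lists of cytokines, antigen presentation, interferon response and complement passed the adjusted threshold in limma. Of 27 inflammatory cytokine and chemokine genes, a list that does not hold Ccl12, 20 were higher and 1 lower at an unadjusted p under 0.05, with a median difference of 0.87. The list's mean level was -3.93 to -2.81 on the saline arrays and -2.63 to -1.96 on the hUMSC arrays, so the groups did not overlap, with saline 1 and 5 lowest and the normal controls at -4.91 to -4.51. The median was 1.12 within slide 1, 1.00 within slide 2 and 1.02 with the slide as a block. In the fit with that block 13 of 27 were called higher, beside 4.21% of all genes.

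Il1b, the gene of interleukin 1 beta, read -5.17, -2.88, -3.73, -3.92 and -5.11 on saline 1 to 5 and -2.94 to -1.98 with a median of -2.46 on the hUMSC arrays. Saline 2 lay within the hUMSC range, and the difference of 1.70 ± 0.39 had an adjusted p of 0.0704 and was 1.11 with normexp background correction. Il1rn, whose product blocks the interleukin 1 receptor, differed by 1.71 ± 0.38 (adjusted p = 0.0658), and Tnf by 0.84 ± 0.21 (adjusted p = 0.0782). Cxcl10, a chemokine for T cells, read -3.98 to -3.36 on the saline arrays and -3.12 to -1.42 on the hUMSC arrays, without overlap (1.24 ± 0.27, adjusted p = 0.0646). Ccl2, a chemokine for monocytes, differed by 2.09 ± 0.77 (adjusted p = 0.127), but by 0.73 without saline 1 and 5. The probe of Il6 was not tested, since too few arrays were well above background.

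When saline 1 and 5 were left out the cytokine list's median was 0.55, and 11 of 27 were higher and 0 lower at an unadjusted p under 0.05, beside 3.1% of all genes higher and 5.99% lower. Il1b then differed by 1.04 and Cxcl10 by 1.12. The list's median therefore shrank but stayed above 0, and 0 members were called in that fit.

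**Figure D3:**
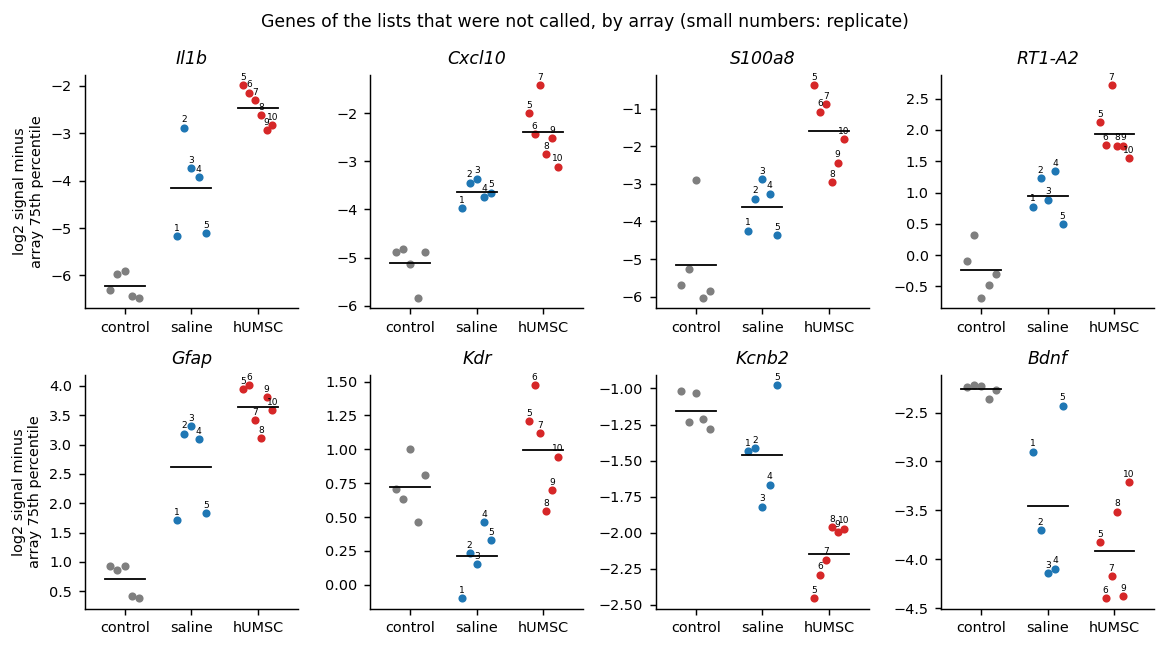
Log2 signal minus the array's 75th percentile for 8 genes that did not pass the adjusted threshold, on the 5 normal control, 5 saline and 6 hUMSC arrays; each point is 1 array, small numbers give the replicate and bars are group means. Saline 1 and 5 lie toward the normal controls for Il1b, S100a8, Gfap and Bdnf, and the hUMSC and saline arrays do not overlap for Cxcl10, RT1-A2, Kdr and Kcnb2.

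Antigen presentation genes lay higher on the hUMSC arrays. Of 20 measured, 19 were higher and 0 lower at an unadjusted p under 0.05, with a median of 0.81 and 0 called. RT1-A2, a class I heavy chain gene, read 0.49 to 1.34 on the saline arrays and 1.54 to 2.71 on the hUMSC arrays, without overlap (0.99 ± 0.22, adjusted p = 0.0652), and RT1-Da, a class II chain gene, differed by 1.45 ± 0.34 (adjusted p = 0.0721). The list's mean level was -0.66 to 0.64 on the saline arrays and 0.54 to 1.17 on the hUMSC arrays, and saline 2 alone lay within the hUMSC range. The median was 0.94 within slide 1 and 0.92 within slide 2. With the slide as a block 13 of 20 were called higher, beside 4.21% of all genes. The list's median was 0.44 without saline 1 and 5, with 7 of 20 higher at an unadjusted p under 0.05.

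Of 24 interferon response genes, 18 were higher and 0 lower at an unadjusted p under 0.05, with a median of 0.74. Ifitm3, which hinders virus entry, differed by 1.097 ± 0.281 (adjusted p = 0.0786) and Gbp5, a guanylate-binding protein gene, by 0.78 ± 0.21 (adjusted p = 0.0854). The mean level of the list was -1.48 to -1.04 on the saline arrays and -1.16 to 0.21 on the hUMSC arrays, with replicates 7 and 6 highest. The median was 0.84 within slide 1, 0.75 within slide 2 and 0.48 without saline 1 and 5, when 7 of 24 were higher.

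The complement list, whose products tag debris and cells for removal, had 15 of 21 genes higher and 0 lower at an unadjusted p under 0.05 and a median of 0.67. Its 2 members with the smallest p were Cfd, complement factor D, at 1.23 ± 0.34 and C2 at 1.04 ± 0.30, both overlapping between the groups. Leaving out saline 1 and 5 gave a median of 0.34, with 3 of 21 higher.

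Markers of leukocytes lay higher too. Of 24 phagocytic macrophage genes, 14 were higher and 0 lower at an unadjusted p under 0.05, with a median of 0.94. Cd68, a lysosomal protein of phagocytes, read 0.21, 2.28, 2.08, 2.04 and -0.46 on saline 1 to 5 and 2.10 to 2.97 on the hUMSC arrays, so saline 2 alone lay within the hUMSC range and saline 1 and 5 lay far below it. Its difference of 1.32 ± 0.49 (adjusted p = 0.127) was 0.42 without those 2 lowest arrays, and the list's median was then 0.23 with 2 of 24 higher. Spp1, the gene of osteopontin, differed by 0.91 ± 0.53 with all arrays and by -0.003 without saline 1 and 5.

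The 16 genes of alternative activation had a median of 1.02, with 11 higher and 0 lower at an unadjusted p under 0.05. Of the 16, 7 were also members of other lists. Arg1, arginase 1, differed by 1.18 ± 0.38 (adjusted p = 0.104), Mrc1, the mannose receptor CD206, by 1.07 ± 0.44 (0.55 with normexp background correction) and Clec10a, a lectin of macrophages, by 1.34 ± 0.37. The median was 0.68 with normexp background correction and 0.44 without saline 1 and 5, with 3 higher and 1 lower. The phagocyte oxidase and nitric oxide list had a median of 0.59 with 8 of 14 higher and 1 lower, the lower being Ptgs2 (cyclooxygenase 2) at -0.69 ± 0.18 (adjusted p = 0.0837; -0.41 with normexp background correction). Its median was 0.29 without saline 1 and 5, with 3 higher and 2 lower.

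Of 9 neutrophil genes, 6 were higher and 0 lower at an unadjusted p under 0.05, and the median was 0.91. S100a8, a subunit of calprotectin, read -4.24, -3.39, -2.88, -3.27 and -4.37 on saline 1 to 5 and -2.96 to -0.38 on the hUMSC arrays. Only hUMSC 8 lay within the saline range, and the difference was 2.04 ± 0.46 (adjusted p = 0.0704). The normal controls lay at -6.03 to -2.90, with control 3 highest and inside the saline range. The list's median was 1.05 within slide 1, 1.26 within slide 2 and 0.61 without saline 1 and 5, when 4 of 9 were higher.

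Of 14 T and NK cell genes, 8 were higher and 0 lower at an unadjusted p under 0.05, with a median of 0.64. That median was 0.12 with normexp background correction, 0.41 with 4 of 14 higher without saline 1 and 5, and 0.28 when hUMSC 5 and 6 were left out as well. Nkg7, a granule protein of killer cells, did not overlap between the groups (0.46 ± 0.11, adjusted p = 0.0728), and differed by 0.26 with normexp background correction. The homeostatic microglia list had a median of 0.26 with 3 of 12 higher and 1 lower (0.073 without saline 1 and 5, with 1 higher), and Aif1, which encodes IBA1, differed by 0.67 ± 0.24 (adjusted p = 0.122). The 4 B cell genes measured had a median of 0.28, which was -0.017 without saline 1 and 5 and 0.021 with normexp background correction.

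Red blood cell genes went the other way without passing any threshold. All 4 measured had a difference below 0, with a median of -0.71 and 0 at an unadjusted p under 0.05. Hbb, beta globin, read 6.50, 5.04, 5.29, 4.23 and 5.70 on saline 1 to 5 and 3.80 to 5.06 on the hUMSC arrays. Among the 11 compared arrays Alas2, which starts haem synthesis in red cells, was highest on saline 1 at 0.16, but normal control 3 read 1.21. The list's mean level was -2.08 to 0.41 on the saline arrays and -2.56 to -1.08 on the hUMSC arrays, which overlap. On the normal controls that level was -1.79 to 1.87. The list's median was -0.16 without saline 1 and 5. The labels describe an RNA kit for blood with removal of globin messages, and the part of blood in the other results was not tested.

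Leukocyte adhesion and the vessel wall came next. Of 11 adhesion genes, 1 was called (Sele), and 9 were higher and 0 lower at an unadjusted p under 0.05. The groups did not overlap for 4 of them, all higher, beside 1.26% of all genes upward. The median was 1.04, and it was 1.21 within slide 1, 1.17 within slide 2 and 0.48 without saline 1 and 5, when 6 of 11 were higher. Named after their values were seen, Itgal, the alpha L integrin of leukocytes, differed by 1.66 ± 0.43, Icam1, its endothelial ligand, by 0.94 ± 0.28, and Vcam1 by 0.04 ± 0.09.

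Of 15 endothelial genes, 9 were higher and 1 lower at an unadjusted p under 0.05, with a median of 0.34. Kdr, the main receptor for VEGF, read -0.10 to 0.46 on the saline arrays and 0.54 to 1.47 on the hUMSC arrays, without overlap, and the controls lay at 0.47 to 1.00 (0.78 ± 0.16, adjusted p = 0.062). Flt1, the decoy VEGF receptor, differed by 0.74 ± 0.20 (adjusted p = 0.0844). The 14 pericyte and smooth muscle genes had 1 call (Kcnj8), 6 higher and 0 lower at an unadjusted p under 0.05, and a median of 0.36 (0.20 with normexp background correction). The endothelial and pericyte medians were 0.23 and 0.23 without saline 1 and 5, with 4 and 5 members higher.

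**Figure D4:**
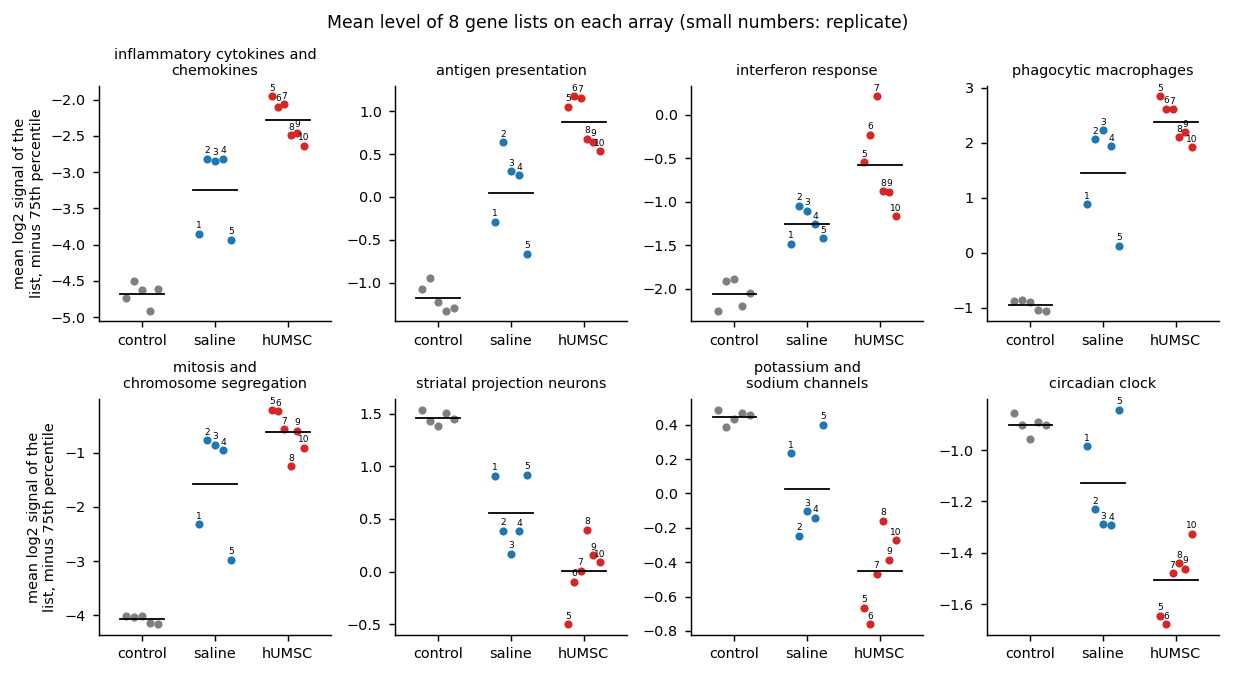
Mean log2 signal of the measured members of 8 gene lists, minus the array's 75th percentile, on each normal control, saline and hUMSC array; each point is 1 array, small numbers give the replicate and bars are group means. The hUMSC and saline arrays do not overlap for cytokines and chemokines and for the circadian clock, and saline 1 and 5 lie nearest the normal controls in most panels.

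Proliferation genes were higher on most hUMSC arrays and lowest, among the injured arrays, on saline 1 and 5. Of 22 mitosis genes, 15 were higher and 0 lower at an unadjusted p under 0.05, with a median of 0.96 and 0 called. The list's mean level was -2.97 to -0.77 on the saline arrays and -1.25 to -0.21 on the hUMSC arrays. Aurkb, the aurora B kinase, read -5.15, -3.31, -3.31, -3.39 and -5.32 on saline 1 to 5 and -3.80 to -2.53 on the hUMSC arrays (1.19 ± 0.42, adjusted p = 0.121; 0.72 with normexp background correction). With those 2 arrays left out the list's median was 0.24 with 0 of 22 higher. The 24 DNA replication genes had a median of 0.78 with 16 higher (0.51 with normexp background correction), and of 0.22 with 0 higher without those 2 arrays.

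Of 24 reactive astrocyte genes, 9 were higher and 1 lower at an unadjusted p under 0.05, with a median of 0.86. Gfap, the intermediate filament of astrocytes, read 1.71, 3.18, 3.31, 3.09 and 1.83 on saline 1 to 5 and 3.11 to 4.01 on the hUMSC arrays (1.02 ± 0.32, adjusted p = 0.102). Its difference was 0.45 without saline 1 and 5, and the list's median was then 0.16, with 4 of 24 higher. The 30 matrix and protease genes had a median of 0.59 with 8 higher and 1 lower, which became 0.10 with 2 higher and 0 lower. Among them Mmp9, gelatinase B, differed by 1.01 ± 0.34 (adjusted p = 0.115) and Col4a1, a basement membrane collagen, by 1.14 ± 0.31 (adjusted p = 0.0867).

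Neuronal genes lay lower on the hUMSC arrays. All 16 general neuronal genes had a difference below 0, 11 of them at an unadjusted p under 0.05, with a median of -0.37. The glutamatergic list had 10 of 21 lower, 1 of them called (Camk2b), and a median of -0.43, and the GABAergic list had 10 of 21 lower and a median of -0.35. None of the members of these 3 lists was higher at an unadjusted p under 0.05. The 3 medians without saline 1 and 5 were -0.20, -0.24 and -0.23, with 5, 4 and 3 members lower.

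Striatal projection neuron genes had 12 of 17 lower at an unadjusted p under 0.05 and a median of -0.53. Arpp21, a regulator of calmodulin signalling in these neurons, read 3.80, 3.58, 3.22, 3.48 and 3.76 on saline 1 to 5 and 2.66 to 3.32 on the hUMSC arrays, with hUMSC 10 above saline 3 (-0.53 ± 0.14, adjusted p = 0.0827). The list's mean level was 1.38 to 1.54 on the normal controls, 0.17 to 0.92 on the saline arrays and -0.50 to 0.40 on the hUMSC arrays. The median was -0.80 within slide 1, -0.47 within slide 2 and -0.28 without saline 1 and 5, when 3 of 17 were lower.

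All 28 potassium and sodium channel genes had a difference below 0, and 20 of them had an unadjusted p under 0.05, with a median of -0.47. The groups did not overlap for 4 of them, beside 3.03% of all genes downward. Kcnb2, a delayed rectifier channel, read -1.43, -1.41, -1.82, -1.67 and -0.98 on saline 1 to 5 and -2.45 to -1.96 on the hUMSC arrays (-0.68 ± 0.15, adjusted p = 0.0652). Scn8a, a sodium channel of the axon initial segment, differed by -0.69 ± 0.16 (adjusted p = 0.071). The list's median was -0.66 within slide 1 and -0.44 within slide 2. With the slide as a block 15 of 28 were called lower, beside 7.08% of all genes. The list's median was -0.29 without saline 1 and 5, with 9 of 28 lower.

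Growth factor genes, often discussed with infused stem cells, showed no common direction. Of 24 measured, 3 were higher and 2 lower at an unadjusted p under 0.05, with a median of 0.017 that turned below 0 in 12 of 29 alternatives. Angpt2, which loosens vessel walls, differed by 1.09 ± 0.29 (adjusted p = 0.0838) and Inhba, an activin subunit gene, by -0.51 ± 0.14 (adjusted p = 0.085). Bdnf, the brain-derived neurotrophic factor, read -2.90, -3.70, -4.15, -4.09 and -2.43 on saline 1 to 5 and -4.40 to -3.21 on the hUMSC arrays, and its difference of -0.46 ± 0.34 became 0.063 without saline 1 and 5. Vegfa differed by -0.31 ± 0.21 and Igf1 by 0.28 ± 0.38, the latter turning to -0.39 without those 2 arrays.

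Other groups lay near the median of all genes. The medians were -0.10 for 16 resting astrocyte genes, 0.005 for 18 genes of mature oligodendrocytes, -0.075 for 11 of their precursors, 0.12 for 13 choroid plexus and ependymal genes, -0.15 for cholesterol synthesis, -0.071 for glycolysis and hypoxia and -0.08 for the respiratory chain. In these lists Kcnj10, the Kir4.1 channel of astrocytes, differed by -0.67 ± 0.13 (adjusted p = 0.0561; -0.27 with normexp background correction) and Tnr, tenascin R, by -0.55 ± 0.11 (adjusted p = 0.0561), both without overlap. The apoptosis list had a median of 0.37 with 11 of 25 higher and 1 lower at an unadjusted p under 0.05, and Bcl2, which blocks apoptosis, differed by -0.42 ± 0.11 (adjusted p = 0.0827). The list's median was 0.065 without saline 1 and 5, with 4 higher and 1 lower, and 0.22 with normexp background correction.

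Stress and activity genes were mixed. The heat shock and metallothionein list had 2 of 17 higher and 2 lower with a median of -0.10, and Hspb1, a small heat shock protein, differed by 1.24 ± 0.71. The Nrf2 and haem list had 5 of 18 higher and 1 lower with a median of 0.20 (0.093 without saline 1 and 5, with 1 higher), and its member Gpx2, a glutathione peroxidase, did not overlap (1.08 ± 0.22, adjusted p = 0.0561), while Hmox1, haem oxygenase 1, differed by 1.24 ± 0.57 (adjusted p = 0.178). Of 23 immediate early genes, 5 were higher and 2 lower with a median of -0.09, which was 0.19 without saline 1 and 5. Ier2 differed by 0.53 ± 0.14 and Homer1 by -0.73 ± 0.19, both without overlap.

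Across the 38 lists, 37 medians kept their sign with the slide as a block, 35 within slide 1 and 37 within slide 2. Without saline 1 and 5, 35 kept their sign, and the 3 that did not were those of B cells, growth factors and immediate early genes. With hUMSC 5 and 6 left out as well, 30 kept their sign. The median was then 0.019 for mitosis, 0.006 for DNA replication and 0.028 for reactive astrocytes, against 0.331 for cytokines and chemokines. Over all alternatives, 28 of the 38 lists never changed sign. The lists' medians moved toward 0 in most cases when saline 1 and 5 were left out, as the plot of list medians shows. For lists that follow the first principal component this was largely fixed by the choice of those arrays. In that fit 0 genes were called among all 20575.

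**Figure D5:**
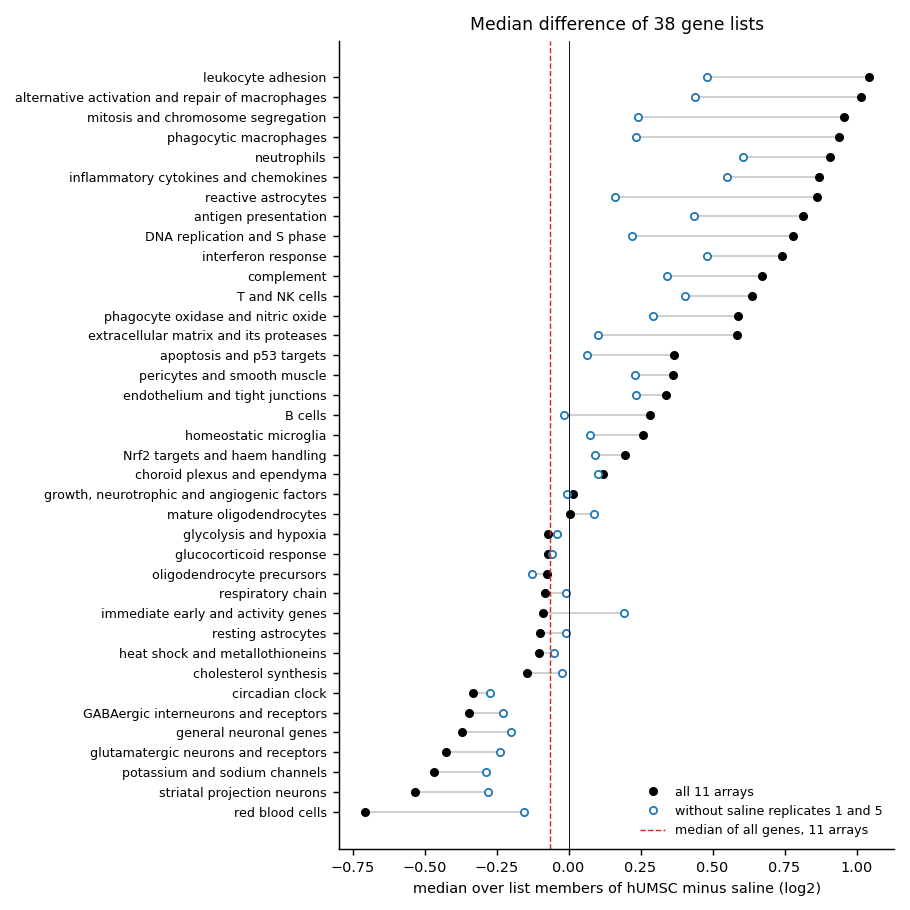
Median over the measured members of each of 38 gene lists of the hUMSC minus saline log2 difference, with all 11 arrays (filled) and without saline replicates 1 and 5 (open); the dashed line is the median of all genes at -0.064. Leukocyte adhesion is highest at 1.04 and red blood cells lowest at -0.71, and open points lie nearer 0 for the inflammatory, proliferation and neuronal lists.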

How the data were processed

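Agilent one-colour arrays were read from the deposited scanner files, whose gProcessedSignal column holds spot intensity after background subtraction and whose flags mark outlier spots and spots well above background, per the file headers. Feature Extraction wrote them, version 11.0.1.1 per the file headers and 100.0.1.1 per the submitters' processing notes. The deposited value table held the mean intensity per probe and served as an alternative.

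Control spots and outlier spots were left out, spots of a probe were averaged, and log2 intensity was centred on each array's 75th percentile. Probes well above background on 5 or more of the 11 arrays were kept, and the brightest tested probe stood for a gene. Per array, 72.3% to 77.6% of 30367 probes were well above background and 0 were saturated. limma 3.58.1 (in R 4.3.3, with the package data.table, version 1.17.8) compared 6 hUMSC with 5 saline arrays (9 residual degrees of freedom, two-sided, Benjamini-Hochberg), after it was tested on simulated data. Single genes also had a two-sided exact permutation test.

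Symbols came from RefSeq accessions (18355 of 30367 probes matched). Of 743 listed genes, 673 were tested. Named genes were the 12 largest called changes per direction, with a symbol and detected on every array of the higher group, places being filled by smallest p, then up to 3 called members of each list or else the 2 with the smallest p, and a set of genes fixed by name (such as Gfap, Il1b and Bdnf). The groups, lists and genes were chosen with earlier results of these data known. Normalization, filters, probe rules, models, slide and left-out arrays were varied. One gene that this rule names is not reported here.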

Additional observations from a re-analysis of the deposited data

Results flagged for a closer look

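Among 276 groups of values checked, each 1 gene in the saline or the hUMSC arrays, 5 held an array far from the others by Dixon's criterion, and chance alone marks about 1 in 20 groups. Mbp, the myelin basic protein gene, read 7.637 on hUMSC 10 against 7.311 to 7.367 on the other hUMSC arrays. Rarb, a retinoic acid receptor gene of the striatal list, read -3.706 on hUMSC 10 against -4.189 to -4.058. Il1rn read -1.878 on hUMSC 10 against -0.615 to -0.189. Aurkb read -3.797 on hUMSC 8 against -2.95 to -2.53. Sod2, a mitochondrial superoxide dismutase gene, read 0.968 on saline 4 against 1.138 to 1.204 on the other saline arrays.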

How the results depend on the processing

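The 9 genes called higher and 40 called lower became 14 and 32 with normexp background correction, 8 and 17 with median scaling, 2 and 1 without a filter on dim probes, 24 and 134 with probes well above background on all 11 arrays, 1036 and 1694 with all 16 arrays in the fit, 866 and 1456 with the slide as a block, and 0 and 0 within each slide. Leaving out 1 array gave 0 to 80 higher and 0 to 306 lower, and 1302 to 2822 higher and 2190 to 3962 lower at an unadjusted p under 0.05. Chosen after seeing the data, 3 further alternatives gave 0 and 0 without saline 1 and 5, 0 and 1 without hUMSC 5 and 6, and 1 and 1 without all 4. At an unadjusted p under 0.05 these 3 had 637, 1133 and 667 genes higher and 1232, 1988 and 1023 lower, array weights 1571 higher, and slide 2 alone 926 higher and 1384 lower. The share of calls that were higher was 18.4% in the fit reported, 32.0% with median scaling, 30.4% with normexp, 37.3% with the slide as a block and 37.9% with 16 arrays.

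No called gene changed direction in any of the 29 alternatives that tested it. Where arrays were left out it could not, since the groups did not overlap for these genes. Among other named genes, without all 4 arrays the log2 difference turned to -0.084 for Cd22, -0.091 for Aqp1, -0.058 for Spp1, -0.113 for Hmox1, -0.002 for Hspb1, 0.16 for Bdnf, 0.169 for Vegfa and -0.504 for Igf1. Without saline 1 and 5 it turned to -0.003 for Spp1, 0.063 for Bdnf and -0.391 for Igf1, and Igf1 was -0.052 with array weights, and between -0.091 (without saline 5) and 0.515 (without saline 3) when 1 array was left out. The causes were not tested. No paired analysis was possible because the hUMSC arrays were numbered 5 to 10 and the saline arrays 1 to 5, sharing only number 5. With 6 and 5 arrays, their number limits the precision, and probes near background, such as Sele on saline arrays, have an uncertain lower level.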
